A study of Homo sapiens with 6 samples.

Results

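Cholesterol synthesis genes were examined in HCT116 cells, a human colorectal carcinoma line, with and without LSD1. The members were SREBF2, INSIG1, HMGCS1, IDI1, FDFT1, SQLE and DHCR7, which are 7 of the 60240 genes in the count table. They were chosen by symbol, as SREBF2 and genes that its product is known to switch on, and each was matched to its row through the Ensembl identifier. Genes that take up cholesterol are no members and are described as a separate list.

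RNA-seq was performed on 3 libraries from wild-type cells (WT) and 3 libraries from LSD1 KO cells, all grown in the same medium. LSD1, encoded by KDM1A, removes methyl groups from lysine 4 of histone H3, and the study asked how gene expression depends on it. In the LSD1 KO cells, KDM1A had been cut with CRISPR/Cas9 in its first exon, transfected cells had been selected briefly with puromycin, and single clones had been grown out. The sources used here describe no such selection for the WT cells. The sources used here do not say how many clones gave the libraries, nor whether the libraries of a group came from separate cultures, so the p-values measure only the spread between these libraries.

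Cholesterol is made from acetyl-CoA through mevalonate and squalene. When sterols are low in the membrane of the endoplasmic reticulum, SCAP carries the SREBP-2 precursor, the product of SREBF2, to the Golgi, where proteases release its transcription factor part. This part binds sterol regulatory elements, usually beside sites for NF-Y or Sp1, and raises transcription of nearly every enzyme of the pathway and of the LDL receptor. When sterols are high, INSIG1 holds SCAP back, and because INSIG1 is itself a target of SREBP-2, its transcript is widely read as a gauge of the pathway.

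The members were chosen as SREBF2 and known targets of its product, and the DNA just before the start of 3 of them is shown. Whether these sequences bear on the transcript levels below was not tested. The sequences are from RefSeq (GRCh38.p14), run 5' to 3' on the strand of the gene and end at position -1, the base before its start. Capitals mark matches, on either strand, to the sterol regulatory element of the LDL receptor written as TCACNCCAC and to the NF-Y motif CCAAT, which reads ATTGG on the opposite strand. The promoters are SREBF2 at chr22:41832855-41833104 (plus strand), INSIG1 at chr7:155297628-155297877 (plus strand) and HMGCS1 at chr5:43313413-43313662 (minus strand).
SREBF2: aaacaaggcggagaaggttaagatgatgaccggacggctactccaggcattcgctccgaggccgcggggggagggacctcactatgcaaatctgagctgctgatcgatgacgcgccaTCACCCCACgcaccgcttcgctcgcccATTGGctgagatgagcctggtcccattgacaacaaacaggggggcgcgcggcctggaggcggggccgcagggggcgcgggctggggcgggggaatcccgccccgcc
INSIG1: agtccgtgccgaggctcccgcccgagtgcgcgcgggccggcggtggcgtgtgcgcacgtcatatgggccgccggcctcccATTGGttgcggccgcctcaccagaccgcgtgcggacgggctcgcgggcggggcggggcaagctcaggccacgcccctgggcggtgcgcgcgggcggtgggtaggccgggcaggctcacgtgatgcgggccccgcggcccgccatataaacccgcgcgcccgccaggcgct
HMGCS1: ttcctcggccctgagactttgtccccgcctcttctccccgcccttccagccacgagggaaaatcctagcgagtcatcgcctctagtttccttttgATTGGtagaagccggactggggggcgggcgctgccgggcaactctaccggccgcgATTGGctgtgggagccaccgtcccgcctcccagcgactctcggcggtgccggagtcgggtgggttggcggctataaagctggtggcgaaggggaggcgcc
The SREBF2 window held a TCACNCCAC match from position -133 and an NF-Y match from position -106. The INSIG1 window held an NF-Y match from position -170 and an E-box, CACGTG, from position -55. The HMGCS1 window held 2 NF-Y matches, the first from position -155.

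Of the 7 genes, 5 had promoters in the RefSeq table, with 9 promoters between them. Of these 9, 1 held TCACNCCAC, 6 held CCAAT, 8 held the Sp1 motif GGGCGG and 1 held CACGTG within the 250 bases before the start. Among all 35116 promoter windows of that length, TCACNCCAC was found in 0.883%, CCAAT in 32.0%, GGGCGG in 42.6% and CACGTG in 6.34%. A match of letters is a description and does not show that a factor binds there.

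KDM1A served as the check of the labels. It was measured at 231.2, 224.4 and 213.8 CPM (counts scaled to the TMM-normalized library size, the unit of all levels below unless stated) in WT replicates 1, 2 and 3. In LSD1 KO replicates 1, 2 and 3 it was 29.9, 27.6 and 27.8 CPM, so every LSD1 KO library was far below every WT library. Its log2 fold change was -2.97 (standard error 0.15, edgeR q value 0.000451). Library totals ranged from 25379279 to 29186963 counts, and the lowest count of any member in any library was 1214, for which counting error alone gives a coefficient of variation of 2.87%. Of 11 colon epithelial markers, 6 were above 1 CPM in every library, led by KRT8, and their summed level was 2045 to 3820 CPM in WT and 2421 to 3161 CPM in LSD1 KO. EPCAM, an epithelial adhesion molecule, was at 172.8 to 248.0 CPM in WT and 77.6 to 133.9 CPM in LSD1 KO. Its log2 fold change in the blocked fit described below was -0.98 (edgeR q value 0.0788, against 0.668 without the block). With DESeq2 its q value was 0.0508 without the block and 0.1615 with it. For KRT19, a keratin, the blocked fit gave 0.45 (edgeR q value 0.123, DESeq2 0.00373). CDX1 was at 0, and VIL1, LGALS4 and CDH17 had at most 10 counts in any library. The summed level was 2.38 to 7.04 CPM in WT and 3.25 to 11.8 CPM in LSD1 KO for 6 hepatocyte markers (2 at 0 in every library). It was 20.5 to 24.2 and 30.3 to 34.4 CPM for 6 fibroblast markers, led by COL1A1 (1 at 0), and 17.2 to 20.4 and 23.2 to 34.2 CPM for 6 blood cell markers, led by CD68 (2 at 0). These sums are largely single genes. COL1A1 was at 20.4 to 23.9 CPM in WT and at least 30.1 CPM in every LSD1 KO library (edgeR q value 0.0628 with the block, above 0.1 without it), and CD68 was at 16.1 to 19.6 CPM and 22.1 to 32.6 CPM (edgeR q value 0.132 with the block). The part of these markers in the results below was not tested.

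The libraries differed by replicate number as well as by genotype. On the first principal component of all genes, WT replicate 2 was at 50.5 and LSD1 KO replicate 2 at 58.0, while the remaining 4 libraries lay between -51.1 and -6.91. Short genes were also higher relative to long genes in replicate 2, with a median log2 difference of 0.453 in WT and 0.249 in LSD1 KO, against -0.190 to -0.0594 in the other 4 libraries. Because WT and LSD1 KO libraries of the same number deviated together, they are called pair 1, pair 2 and pair 3, and each comparison was also fitted with the replicate number as a block.

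None of the cholesterol synthesis genes differed between LSD1 KO and WT cells by the test. With edgeR's quasi-likelihood test and no block, 0 of 7 had a q value under 0.1, beside 0.00566% of all 17672 genes tested, which is KDM1A alone. At an unadjusted p under 0.05 there were 0 of 7, beside 552 of all 17672. With the replicate block, edgeR again called 0 of 7, beside 1.60% of all genes. At an unadjusted p under 0.05 there were 0 of 7 with the block, beside 2373 of 17672. DESeq2 called 0 of 7 without the block, beside 95 of the 25298 genes to which it gave a q value. With the block it called 0 of 7, beside 597 of 14165. The median log2 fold change of the 7 genes was -0.11, beside 0.00 for all genes tested, and 2 of 7 were above 0. All 7 genes passed the filter on low counts, and for all 7 the WT and LSD1 KO libraries overlapped. The share of all genes tested with such overlap was not counted. In bulk RNA, fewer cells with a transcript and fewer transcripts in each cell cannot be told apart.

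**Figure D1:**
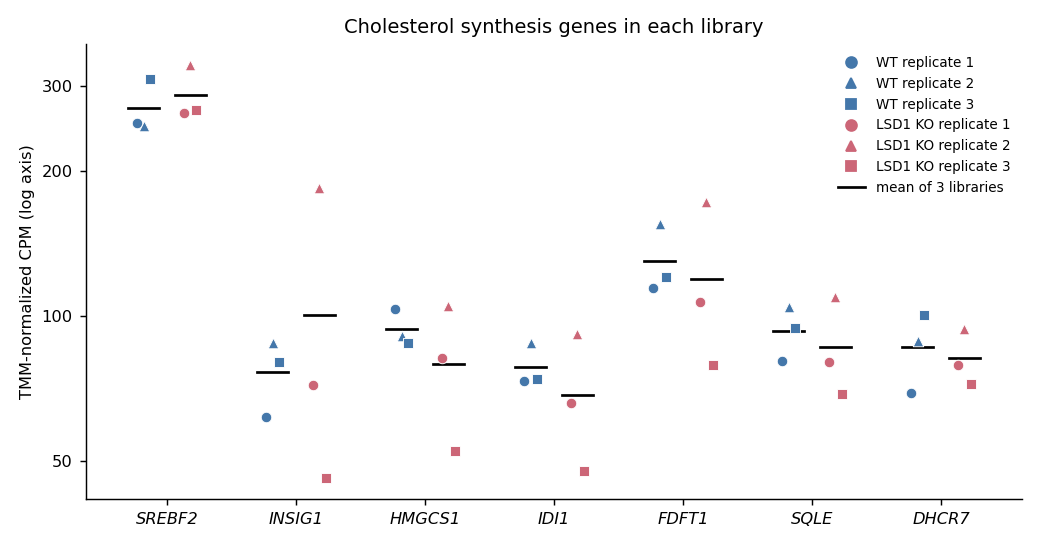
TMM-normalized CPM on a log axis of the 7 cholesterol synthesis genes in each library, with WT in blue and LSD1 KO in red, the shape giving the replicate number and the bar the mean of 3 libraries. LSD1 KO replicate 2 is the highest LSD1 KO library for all 7 genes and LSD1 KO replicate 3 the lowest for 6, and the ranges of the groups overlap for every gene.

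SREBF2 encodes the precursor of SREBP-2 itself (ENSG00000198911, GRCh38.p14 chr22:41833105-41907305). It was measured at 252.1, 247.6 and 309.7 CPM in WT replicates 1 to 3 and at 263.4, 332.5 and 267.0 CPM in LSD1 KO replicates 1 to 3. WT replicate 3 and LSD1 KO replicate 2 were high, and the other 4 libraries lay close together. The means were 269.8 ± 34.6 CPM (SD, n = 3) in WT and 287.6 ± 38.8 CPM (SD, n = 3) in LSD1 KO. The log2 fold change was 0.09 (standard error 0.18), and its 95% interval, from -0.32 to 0.50, corresponds to LSD1 KO levels between 0.803 and 1.42 times the WT level. Of the 31-base sequences of its transcripts, 8.26% also occur in the antisense gene SREBF2-AS1, which had 12 to 30 counts per library.

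INSIG1, the retention factor of SCAP (ENSG00000186480, chr7:155297878-155310235), spread most. Its WT levels were 61.6, 88.0 and 80.0 CPM. Its LSD1 KO levels were 71.6, 184.1 and 46.0 CPM, so that the highest and the lowest of all 6 libraries were both LSD1 KO libraries. Within LSD1 KO the highest library was 4.01 times the lowest, against 1.43 times within WT. The mean was 76.5 ± 13.5 CPM in WT and 100.6 ± 73.5 CPM in LSD1 KO (SD, n = 3 each), and the log2 fold change of 0.39 had an interval from -0.62 to 1.41 (0.649 to 2.66 times WT). These libraries therefore leave room for a moderate fall as well as for a more than doubled level of INSIG1.

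HMGCS1 makes HMG-CoA from acetoacetyl-CoA and acetyl-CoA (ENSG00000112972, chr5:43287470-43313412). WT replicates 1 to 3 had 103.1, 90.7 and 87.6 CPM and LSD1 KO replicates 1 to 3 had 81.6, 104.8 and 52.3 CPM. LSD1 KO replicate 3 stood below every other library, while LSD1 KO replicate 2 was the highest of all 6. The means were 93.8 ± 8.18 and 79.6 ± 26.3 CPM, with a log2 fold change of -0.24 (interval -0.80 to 0.32). Of its 31-base sequences 38.9% occur in other genes too, most of them in the antisense gene ENSG00000261604, which had at most 2 counts in any library.

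IDI1 interconverts the activated isoprene units from which squalene is built (ENSG00000067064, chr10:1039152-1056704). Its levels were 73.3, 87.6 and 73.8 CPM in WT and 65.8, 91.6 and 47.6 CPM in LSD1 KO. Again LSD1 KO replicate 2 was the highest library and LSD1 KO replicate 3 the lowest. The means were 78.2 ± 8.14 and 68.3 ± 22.1 CPM, and the log2 fold change was -0.20 (interval -0.74 to 0.35). Some 16.5% of its 31-base sequences occur in other genes, most in IDI2-AS1, which had 35 to 82 counts per library.

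FDFT1, squalene synthase, commits the pathway to sterols (ENSG00000079459, chr8:11795582-11839298). It was measured at 114.0, 154.8 and 120.4 CPM in WT and at 106.6, 172.5 and 79.0 CPM in LSD1 KO. Replicate 2 was the highest library in both groups, and LSD1 KO replicate 3 was the lowest of all 6. The means were 129.7 ± 21.9 and 119.4 ± 48.0 CPM, and the log2 fold change was -0.12 (interval -0.76 to 0.52). Other genes share 5.01% of its 31-base sequences.

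SQLE, squalene epoxidase, catalyzes the first oxygen-dependent step (ENSG00000104549, chr8:124998505-125022283), with 80.5, 104.4 and 94.4 CPM in WT and 80.2, 109.2 and 68.8 CPM in LSD1 KO. Within pair 1 and within pair 2 its WT and LSD1 KO levels lay close together, and LSD1 KO replicate 3 was the lowest library. Its log2 fold change was -0.11 (interval -0.59 to 0.36). DHCR7, which performs a last reduction that yields cholesterol (ENSG00000172893, chr11:71427287-71449043), had 69.1, 88.8 and 100.4 CPM in WT. In LSD1 KO it had 79.1, 93.8 and 72.3 CPM, all of them inside the WT range. Its log2 fold change of -0.07 had an interval from -0.51 to 0.36, and it was the only one of the 7 whose libraries spread less in LSD1 KO than in WT.

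With levels divided by the length of the canonical transcript, FDFT1 and SREBF2 stood highest, at 63.7 ± 10.8 and 51.5 ± 6.61 CPM per kilobase in WT (SD, n = 3). DHCR7, SQLE, IDI1 and INSIG1 followed at 32.8 ± 6.04, 31.4 ± 4.06, 28.6 ± 2.97 and 26.3 ± 4.65 CPM per kilobase, and neighbors in this order differed by less than their SDs. HMGCS1 was lowest at 17.5 ± 1.53 CPM per kilobase in WT. In LSD1 KO the means ran from 14.9 ± 4.92 for HMGCS1 to 58.7 ± 23.6 CPM per kilobase for FDFT1.

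**Figure D2:**
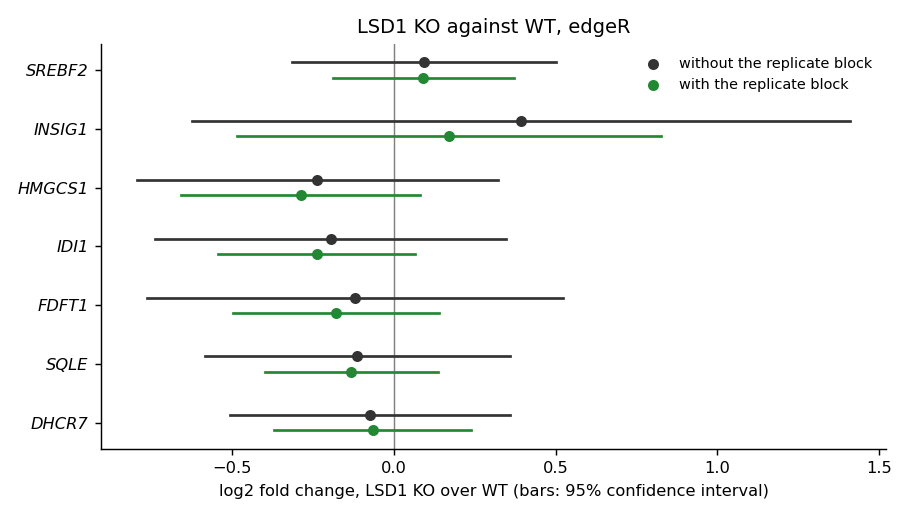
Log2 fold change of LSD1 KO over WT for the 7 genes from edgeR, without (black) and with (green) the replicate number as a block; bars are 95% confidence intervals. Every interval includes 0, those with the block are narrower for every gene, and INSIG1 has the widest.

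The replicate block narrowed every interval and left every direction in place. With the block the log2 fold change was 0.09 for SREBF2 (interval -0.19 to 0.37, q value 0.797 from edgeR) and 0.17 for INSIG1 (-0.49 to 0.83, q value 0.843). It was -0.29 for HMGCS1 (-0.66 to 0.08, q value 0.491) and -0.24 for IDI1 (-0.54 to 0.06, q value 0.487), the lowest q values of the 7. For FDFT1, SQLE and DHCR7 it was -0.18, -0.13 and -0.07, with q values of 0.625, 0.678 and 0.873. On the ratio scale the blocked intervals allow HMGCS1 in LSD1 KO cells from 0.634 to 1.06 times its WT level, and SREBF2 from 0.877 to 1.29 times.

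The difference between LSD1 KO and WT depended on the pair. In pair 2 all 7 genes were higher in LSD1 KO, with a median log2 difference of 0.16, and 49.9% of all genes tested were higher there. In pair 3 all 7 were lower in LSD1 KO, with a median of -0.61, and 50.1% of all genes were lower there. In pair 1, 3 of 7 were higher and the median was -0.01. INSIG1 went furthest in both directions, at 1.06 in pair 2 and -0.80 in pair 3. For HMGCS1 the differences were -0.34, 0.21 and -0.74 in pairs 1, 2 and 3, and for FDFT1 they were -0.10, 0.16 and -0.61. For SREBF2 they were 0.06, 0.42 and -0.21, so that in pair 2 it was further above WT than HMGCS1 and FDFT1.

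This split by pair was looked for after the values had been seen and carries no test. Of all genes tested, 18.8% were higher in LSD1 KO in pair 2 and lower in pair 3, as all 7 cholesterol synthesis genes were. The pattern was kept by all 7 with RLE factors, with upper-quartile factors, without scaling beyond the library total, and with offsets for transcript length and GC content. Across those alternatives the share of all genes with the pattern was 18.3% to 20.1%. Replicate 2 libraries also differed from the rest in the balance of short and long genes, and with the length and GC offsets the median of the 7 genes was 0.12 in pair 2 and -0.65 in pair 3.

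**Figure D3:**
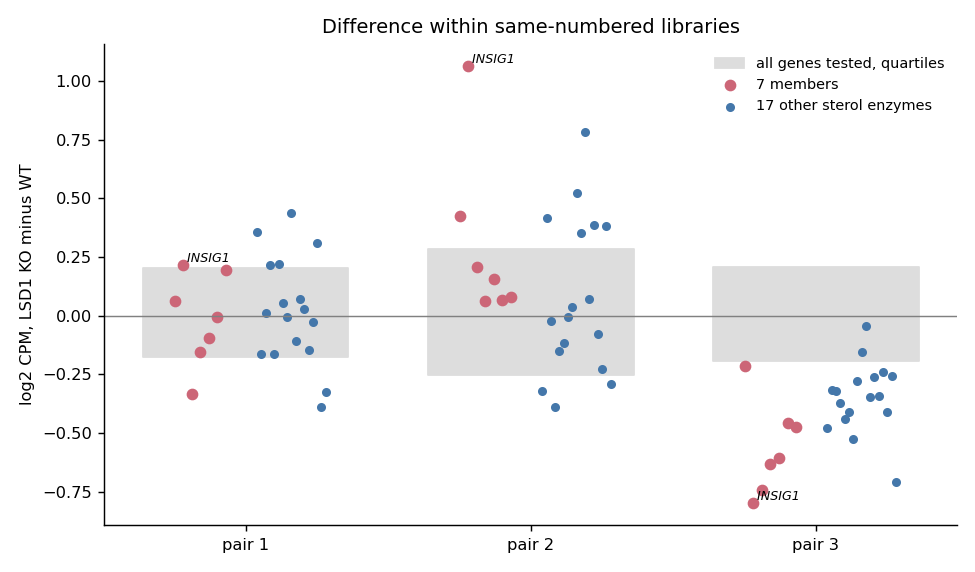
Log2 CPM of LSD1 KO minus WT within each pair of same-numbered libraries, for the 7 cholesterol synthesis genes (red) and the 17 other tested enzymes of sterol synthesis (blue); gray boxes span the quartiles of all genes tested. The red points lie above 0 in pair 2 and below 0 in pair 3, and all blue points lie below 0 in pair 3.

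Within the LSD1 KO group, replicate 2 was highest and replicate 3 lowest for 6 of 7 genes, an order found for 14.6% of all genes. SREBF2 was the exception, with LSD1 KO replicate 1 lowest. The SD of log2 CPM was larger in LSD1 KO than in WT for 6 of 7 genes, beside 48.6% of all genes. Its median over the 7 genes was 0.19 in WT and 0.47 in LSD1 KO, beside 0.30 and 0.30 over all genes. Relative to each gene's own mean, the 7 genes averaged -0.10, 0.15 and 0.09 on the log2 scale in WT replicates 1 to 3. In LSD1 KO replicates 1 to 3 they averaged -0.11, 0.45 and -0.47.

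Leaving out pair 2 changed the comparison. In the fit with the replicate block on the other 4 libraries, HMGCS1 fell by 0.56 on the log2 scale (standard error 0.11, edgeR q value 0.00412). IDI1 fell by 0.41 (standard error 0.12, q value 0.0523) and FDFT1 fell by 0.37 (standard error 0.12, q value 0.0889). This fit called 3 of 7 genes, all lower, beside 5.85% of all genes tested. SREBF2, INSIG1, SQLE and DHCR7 were not called there, at -0.09, -0.31, -0.25 and -0.16. When pair 1 or pair 3 was left out instead, 0 of 7 were called, so these 3 calls rest on the absence of pair 2.

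Differences by replicate number passed the test in several of the 7 genes. By edgeR's F test of the replicate terms, 4 of 7 had a q value under 0.1, beside 41.2% of all genes tested, so that such calls were common. They were FDFT1 (q value 0.0258), IDI1 (0.0569), INSIG1 (0.0662) and SQLE (0.0798). In all 4, replicate 2 was the highest. Over all genes tested, 18.9% were both called and highest in replicate 2, which is 3332 of the 7273 genes called. The log2 difference of replicate 2 from replicate 1, averaged over genotypes, was 1.01 for INSIG1, 0.58 for FDFT1, 0.41 for SQLE and 0.37 for IDI1. HMGCS1, DHCR7 and SREBF2 were not called, with q values of 0.139, 0.335 and 0.580. Without LSD1 KO replicate 2 this test called 2 of 7, beside 8668 of all 18278 genes tested. Without LSD1 KO replicate 3 it called 2 of 7, beside 4554 of 18143, and without WT replicate 2 it called 7 of 7, beside 8480 of 18308.

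The remaining genes of the pathway were read from lists. Besides the 7 genes, 43 genes of SREBP processing, sterol synthesis and cholesterol uptake were listed, of which 41 were tested. Without the block edgeR called 0 of the 41, beside 1 of all 17672 genes tested. At an unadjusted p under 0.05 there were 2 of 41, beside 552 of 17672. DESeq2 without the block called 0, beside 95 of 25298 genes with a q value. With the block edgeR called 1, NPC2, beside 1.60% of all genes. DESeq2 with the block called 3 (1 higher, 2 lower), among them NPC2 and RNF145, beside 597 of 14165 genes with a q value. The median log2 fold change of the 41 was -0.01, and 17 of 41 were above 0.

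NPC2, which binds cholesterol in the lysosome and hands it to NPC1, had 56.9, 83.3 and 62.0 CPM in WT and 104.4, 96.9 and 116.3 CPM in LSD1 KO. Every LSD1 KO library was above every WT library, and NPC2 was higher in LSD1 KO in all 3 pairs. Its log2 fold change was 0.67 with the block (edgeR q value 0.0913) and 0.65 without it (standard error 0.19, q value 0.993), so the call depends on the block. With the block it was also lost at a q value under 0.05 and when pair 1 or pair 3 was left out. The other genes of cholesterol uptake and lysosomal release, of which 12 were tested with NPC2 included, had no call, and VLDLR was not tested, with at most 7 counts in a library. The median of this list was 0.14, and 9 of 12 were above 0.

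Of 12 other genes of SREBP processing and feedback, edgeR called 0 in either fit, and 4 were above 0, with a median of -0.01. RNF145, a ubiquitin ligase of the sterol feedback, was the lowest at -0.39 (q value 0.114 with the block). RNF139, another ubiquitin ligase of the endoplasmic reticulum, was the highest at 0.24 (q value 0.312 with the block). Of 6 other tested genes of the mevalonate pathway, 0 were above 0, and none was called by edgeR in either fit. The lowest was MVD, the decarboxylase that makes isopentenyl diphosphate, at -0.24. IDI2 was not tested, with at most 2 counts in a library.

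Among 11 other enzymes from squalene to cholesterol, edgeR called 0 in either fit, 4 were above 0 and the median was -0.07. TM7SF2, a sterol reductase, was highest at 0.32 (q value 0.459 with the block).

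The low values of pair 3 extended to the other enzymes. All 17 tested enzymes of sterol synthesis outside the 7 genes were lower in LSD1 KO in pair 3, beside 50.1% of all genes. Their median log2 difference there was -0.34. In pair 2, 8 of 17 were higher, beside 49.9% of all genes, with a median of 0.00. LSD1 KO replicate 2 was highest and replicate 3 lowest of the LSD1 KO libraries for 12 of 17, beside 14.6% of all genes. The SD was larger in LSD1 KO for 16 of 17, beside 48.6% of all genes. These counts come from the same libraries and carry no test. MSMO1, a sterol demethylase, resembled INSIG1, with 151.7 CPM in LSD1 KO replicate 2 and 57.8 to 88.2 CPM in the other 5 libraries. The replicate number was called for 12 of 17, of which 10 had replicate 2 highest, beside 41.2% of all genes called.

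**Figure D4:**
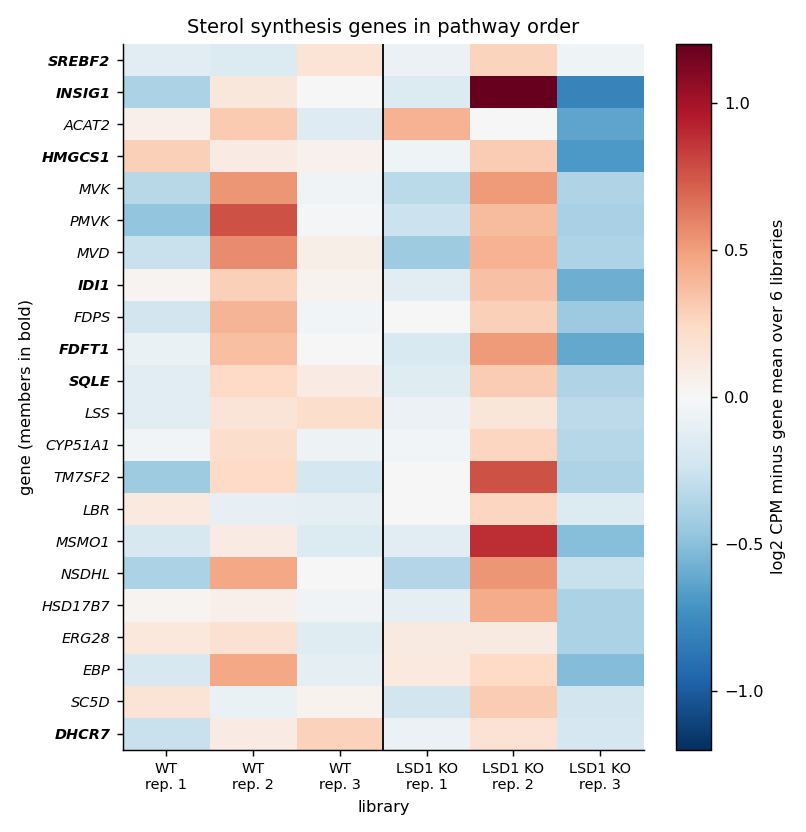
Heat map of the 7 cholesterol synthesis genes (bold) and 15 other sterol synthesis enzymes in pathway order, as log2 CPM minus each gene's mean over the 6 libraries, red for higher and blue for lower. LSD1 KO replicate 3 is blue for every gene, and LSD1 KO replicate 2 is red for nearly every gene, with INSIG1 and MSMO1 the darkest.

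Without pair 2 and with the block, edgeR called 5 of the 41 other pathway genes (2 higher, 3 lower), beside 5.85% of all genes tested. Those given here are named after their values were seen. NPC2 at 0.87 and MYLIP, the ubiquitin ligase that degrades the LDL receptor, at 0.55 were higher. RNF145 at -0.46 was lower. Of the 40 tested genes in the comparison lists, 2 were called in that fit, beside the same 5.85% of all genes. They were ABCG1 at -1.23 and SCD at -0.39.

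In the comparison lists, edgeR called 0 of 40 tested genes with or without the block, and DESeq2 called 0 with or without it. The shares of all genes called in these fits are those given above. At an unadjusted p under 0.05 there were 0 of 40 without the block and 5 of 40 with it, beside 552 and 2373 of all 17672 genes. Cholesterol storage, efflux and oxysterol sensing had 11 tested genes of 15, 9 of them above 0, with a median of 0.06. Their range was -0.10 for OSBPL6, an oxysterol-binding protein, to 0.76 for ABCA1, the cholesterol exporter (q value 0.172 with the block). Fatty acid synthesis targets of SREBPs had a median of 0.03 with 8 of 15 above 0, from -0.25 for FASN, fatty acid synthase, to 0.64 for PNPLA3, a lipase of lipid droplets. The non-sterol isoprenoid branch had a median of 0.07 with 8 of 14 above 0, from -0.28 for PDSS1 of ubiquinone synthesis to 0.14 for RABGGTA of protein prenylation.

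Among the 15 fatty acid genes the replicate number was called for 7, beside 41.2% of all genes tested. Of these 7, 5 had replicate 2 lowest and 2 had it highest. Of the 7273 called among all genes, 2922 had replicate 2 lowest and 3332 had it highest. The median log2 difference of replicate 2 from replicate 1 was -0.25 for the fatty acid list, beside -0.01 for all genes tested. It was 0.64 for the 6 other mevalonate genes, 0.27 for the 11 other enzymes from squalene to cholesterol and 0.37 for the 7 cholesterol synthesis genes. Replicate 2 libraries also differed in the balance of short and long genes, and its part in these medians was not tested. Whether these lists differ in this respect was not tested.

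The genes most like the 7 were sought by the root mean square distance between centered log2 profiles over the 6 libraries, among 10341 other tested genes with a mean of at least 10 CPM. The closest was ENSG00000124593, without a symbol in the table used, at a distance of 0.0711. SLC27A6, a fatty acid transporter, followed at 0.0885, HSD17B7, a sterol synthesis enzyme, at 0.0911, KLF11 at 0.0915 and PPP2R3C at 0.0957. HSD17B7 thus ranked 3 of 10341, and of the other genes in the lists CYP51A1 ranked 17, SCD 55, LSS 56, FDPS 60 and STARD4 71. The 6 libraries share their depth and replicate structure across all genes, so this order is a description.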

How the data were processed

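RNA was sequenced from 3 WT and 3 LSD1 KO HCT116 libraries. According to the study's methods and the submitters' processing notes, the authors checked reads with FastQC, trimmed them with Trimmomatic 0.39 and quantified them with Salmon 1.4.0 against GENCODE on GRCh38. The authors deposited the expected counts of genes in whole numbers without scaling. The step from transcripts to genes and the strand setting are not given in the sources used here. A gene that overlaps another can therefore hold some of its reads.

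Totals were 25379279 to 29186963 counts, so 3 counts correspond to 0.103 to 0.118 CPM by counting error alone. Of 60240 genes, 58395 were matched to a symbol. Levels are TMM-normalized CPM, and log2 values of single libraries used a prior count of 2. Genes were filtered with filterByExpr by group (17672 kept) and compared with edgeR 4.0.16 (R 4.3.3), quasi-likelihood test, Benjamini-Hochberg over all genes tested, called at a q value under 0.1, the threshold of the study. The model held genotype only, and a second model added the replicate number. Same-numbered WT and LSD1 KO libraries had correlated deviations from their group means (r 0.553, 0.553 and 0.404 across genes, against -0.516 to 0.0454 for other numbers), so the numbers were taken to pair the libraries, from the data and not from the labels. The replicate effect was an F test of both replicate terms. DESeq2 1.42.0 was run as an alternative. Length and GC offsets used splines with 5 degrees of freedom for 98.8% of the genes tested. Transcript lengths and 31-base sequences came from GENCODE v44lift37, and gene positions and promoters from RefSeq GRCh38.p14. Figures used matplotlib 3.10.9 in Python 3.11.15, and the scripts for the tests were tested on simulated data.

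Named genes are the 7 members, KDM1A, every listed gene called with or without the block, otherwise the highest and lowest of a list, and the 5 most alike. MSMO1, the genes called without pair 2, the ranks of listed genes and the split by pair were picked after the values were seen. The members and lists were chosen with earlier results of these data known. Alternatives were other size factors, filters, thresholds and tests, the replicate block, and leaving out each library or pair. No set test was run. Some listed genes are not reported here by name and were left out of the heat map.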

Additional observations from a re-analysis of the deposited data

How the results depend on the processing

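For all genes, the comparison without a block called 1 gene. The count was 114 when every gene with a count was kept, 95 with DESeq2 and 4 with length and GC offsets. It was 282 with the replicate block, 295 with the block and RLE factors, 143 with the block at a q value under 0.05, 597 with DESeq2 and the block, and 411 with the block and the offsets. The block without replicate 1, 2 or 3 gave 198 to 1055 (428 without replicate 1), and leaving out 1 library without the block gave 1 to 26, the most without LSD1 KO replicate 2. Of the 7 cholesterol synthesis genes 0 were called in 20 of 21 alternatives, and 3 with the block without pair 2. Of the other pathway genes 1 was called with the block, 1 with the block and RLE factors, 3 with DESeq2 and the block, 3 with the block and the offsets, and 5 with the block without pair 2, where 2 genes of the comparison lists were called. Among the genes named in the report, the replicate block added the edgeR calls of NPC2 and of the markers EPCAM and COL1A1. With DESeq2, EPCAM was called without the block (q value 0.0508) and not with it (q value 0.1615).

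The direction of single genes depended on the library left out. Leaving out 1 library without the block gave log2 fold changes of -0.042 to 0.20 for SREBF2, -0.40 to 0.75 for INSIG1, -0.50 to -0.0072 for HMGCS1, -0.48 to 0.0096 for IDI1, -0.50 to 0.11 for FDFT1, -0.34 to 0.026 for SQLE and -0.21 to 0.049 for DHCR7. LSD1 KO replicate 2 gave the low end for all but DHCR7 (WT replicate 1), and LSD1 KO replicate 3 the high end for all but SREBF2 and DHCR7 (WT replicate 3). With the block, SREBF2 was -0.093 and INSIG1 -0.31 without pair 2, and FDFT1 was 0.034, SQLE 0.033 and DHCR7 0.14 without pair 3. The replicate number was called for 4 of 7 genes, for 1 at a q value under 0.05, and for 2 to 7 when 1 library was left out (4525 to 8668 for all genes). The cause of these changes was not tested.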
